A study of Mus musculus with 45 samples.

Results

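Perivascular macrophages (pvMΦ) and meningeal macrophages (mMΦ) of mouse pups were compared at P10, across all genes, by bulk RNA sequencing of sorted cells. The comparison takes the 3 pvMΦ libraries and the 3 mMΦ libraries labelled with that age, 6 of the 45 libraries of the series, and 3 microglia libraries of the same age served as a reference. Both groups were untreated C57BL/6J mice of genotype Cx3cr1GFP/wt from an SPF breeding facility, so every cell sequenced carried the GFP allele in place of 1 copy of Cx3cr1 and no wild-type mice were part of the comparison. Each library came from an individual mouse according to the design text, and all 9 libraries were of the sequencing batch S232. The labels give neither the surface markers of the sort nor how the 2 macrophage compartments were taken apart, so any difference in tissue preparation between the groups cannot be told apart from a difference between the cells. Libraries held 17557385 to 24938737 counts, and mitochondrial genes took 0.529 to 0.956% of them. The first principal component of the 9 libraries (47.1% of the variance) set microglia apart, and the second (10.7%) separated pvMΦ from mMΦ. The macrophage groups lay apart on the first as well, with mMΦ at −96.6 to −83.0, pvMΦ at −46.9 to −41.6 and microglia at 124 to 147.

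Macrophages at the borders of the brain share a yolk-sac and embryonic ancestry with microglia, depend on the receptor CSF1R, and carry scavenger and lectin receptors such as CD206 (Mrc1) and LYVE1. Meningeal macrophages sit in the membranes around the brain, whereas perivascular macrophages lie along vessels between the vessel wall and the glial limit, close to the parenchyma where microglia live. The weeks after birth are the time in which the perivascular compartment fills.

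Levels are given in CPM (counts scaled to a common library total, with TMM factors) and differences as log2 fold changes ± SE, pvMΦ over mMΦ, from edgeR's quasi-likelihood test with Benjamini-Hochberg adjustment over all 13279 genes tested. At an adjusted p under 0.05, 496 genes differed (3.74% of those tested), of which 245 were higher in pvMΦ (1.85%) and 251 in mMΦ (1.89%). At an unadjusted p under 0.05 there were 1920. In all 496 the 3 and 3 libraries did not overlap, which was also so for 11.8% of all genes tested with pvMΦ higher and 12.1% with mMΦ higher. The difference was at least 2-fold in 183 and 192 of the called genes and at least 4-fold in 95 and 76. The median over all genes tested was −0.00. Of the 496, 295 also passed in each of 6 fits that left out 1 library of the compared groups. DESeq2 called 998 genes, and an edgeR fit over all 45 libraries, in which the more scattered later ages share the estimate of spread, called 93, all of them among the 496. The genes higher in pvMΦ were led by microglial and cell cycle genes, and those higher in mMΦ by immediate early, heat shock and chemokine genes.

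**Figure D1:**
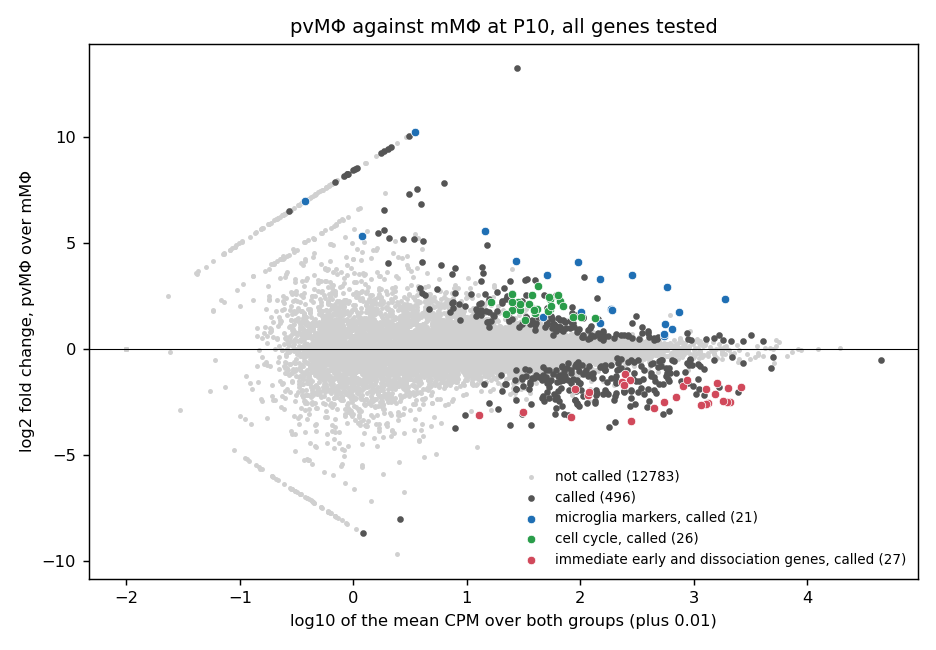
Log2 fold change of pvMΦ over mMΦ (vertical) against the log10 of mean CPM over both groups (horizontal) for all 13279 genes tested, 1 point a gene. Microglia markers and cell cycle genes that were called lie above 0 and immediate early genes below it. Points on the slanted lines have no count in 1 of the groups, and their fitted value depends on the prior count and is no bound.

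Both groups carried the genes of border macrophages. Csf1r, the receptor for CSF1 and IL-34, was at 5786, 4165 and 5064 CPM in pvMΦ and 4927, 5382 and 4929 in mMΦ, and the groups overlapped (−0.02 ± 0.12, adjusted p = 0.980). Of 30 border macrophage markers, all were tested, 10 were higher in mMΦ, 1 in pvMΦ and 19 did not pass, with a median log2 fold change of −0.49. In the fit over all 45 libraries none passed as higher in mMΦ, while DESeq2 called 16. Their summed level was 63330 to 69077 CPM in pvMΦ, 87137 to 96169 in mMΦ and 18153 on average in microglia. Apoe, given below, made up the larger part of that sum in pvMΦ and in mMΦ. Lyve1, the hyaluronan receptor, was at 1912, 1719 and 2011 CPM in pvMΦ and 2455, 2379 and 2569 in mMΦ (−0.39 ± 0.09, adjusted p = 0.0437). Every mMΦ library lay above every pvMΦ library, but the call was lost whichever of the 6 libraries was left out (adjusted p up to 0.167). Apoe, which carries lipid between cells, was the most abundant gene called, at 36591 ± 2973 CPM (SD, n = 3) in pvMΦ and 52886 ± 4079 in mMΦ (−0.53 ± 0.10, adjusted p = 0.0143), and it lost the call in 3 of those 6 fits.

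The markers furthest apart were C-type lectins of the Cd209 cluster, the mouse relatives of DC-SIGN. Cd209f was at 226, 244 and 245 CPM in pvMΦ and 769, 571 and 688 in mMΦ (−1.50 ± 0.16, adjusted p = 4.72e-04). Cd209g was at 22.9, 23.3 and 15.1 CPM in pvMΦ and 86.1, 83.6 and 77.9 in mMΦ (−2.01 ± 0.25, adjusted p = 0.00324), and had no count in microglia. These 2 genes and Cd209b belong to a family of close copies, so reads may have been split among them. Clec4n, which encodes dectin-2, was at 362 ± 20.2 CPM in pvMΦ and 801 ± 87.3 in mMΦ (−1.15 ± 0.13). The other members higher in mMΦ were the lectin gene Clec10a, the chemokine gene Ccl24, the fatty acid receptor gene Cd36 and the scavenger receptor gene Colec12, between −1.14 and −0.62. With 1 library left out the calls of Cd209f, Cd209g and Clec4n held in all 6 fits, while that of Ccl24 was lost in 6, Cd36 in 5, Cd209b in 4 and Clec10a in 3, and the list's count higher in mMΦ was 3 (without mMΦ replicate 3) to 7. Stab1, which encodes the scavenger receptor stabilin-1, was the exception, at 1325, 929 and 1060 CPM in pvMΦ and 674, 559 and 717 in mMΦ (0.77 ± 0.17, adjusted p = 0.0366), a call lost in 5 of the 6 fits with 1 library left out.

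Mrc1, Pf4, Cd163, F13a1, Cbr2, Ms4a7 and Maf, genes by which border macrophages are recognised or, for Maf, a transcription factor gene of macrophages, did not pass. Mrc1 was at 2646 ± 481 CPM in pvMΦ and 3661 ± 82.8 in mMΦ (−0.47 ± 0.12, adjusted p = 0.0679). Pf4 was at 3963 ± 452 and 6226 ± 332 CPM (−0.65 ± 0.22, adjusted p = 0.184). Cd163, F13a1, Cbr2 and Ms4a7 had fold changes from −0.48 to −0.43 and Maf −0.05, with adjusted p from 0.109 to 0.952. A gene that did not pass is not shown to be equal.

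Microglial genes formed the group furthest shifted towards pvMΦ. Of 24 microglia markers tested, 21 were higher in pvMΦ and none in mMΦ, with a median log2 fold change of 2.12, and the summed level of the list was 10611, 9966 and 11025 CPM in the 3 pvMΦ libraries against 3226, 3138 and 3182 in mMΦ and 81092 ± 2175 in microglia. The 3 pvMΦ libraries thus lay close together, between mMΦ and microglia and far below the latter. The members that did not pass were Bhlhe41, Upk1b and the cytokine receptor gene Il7r. The low-count filter also took in the microglia libraries. A fit of only the 6 pvMΦ and mMΦ libraries called 19 markers higher in pvMΦ, with a median of 1.89. In bulk samples more cells of a type and more RNA per cell cannot be told apart, so these levels do not say whether a few cells or all cells of the pvMΦ sort held the transcripts.

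Sall1, a transcription factor that maintains microglial identity, was at 41.2, 22.1 and 22.2 CPM in pvMΦ and 0.569, 0.250 and 0.996 in mMΦ (5.58 ± 0.43, adjusted p = 6.38e-05), with 311 in microglia. Tmem119, a membrane protein gene used to tell microglia from other macrophages, was at 259, 254 and 302 CPM in pvMΦ and 37.7, 19.2 and 24.8 in mMΦ (3.32 ± 0.22, adjusted p = 1.99e-05), with 3338 in microglia. P2ry12, the purinergic receptor by which microglia sense nucleotides, was at 1263, 1018 and 1165 CPM in pvMΦ and 313, 370 and 356 in mMΦ (1.73 ± 0.10, adjusted p = 9.45e-06), with 11718 in microglia. In all 3 genes each pvMΦ library stood above each mMΦ library and below each microglia library.

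Sparc, which encodes a matricellular protein, was at 1023 ± 125 CPM in pvMΦ, 133 ± 75.4 in mMΦ and 14283 in microglia (2.94 ± 0.33). Serpine2, a protease inhibitor gene, was at 181 ± 16.3, 10.7 ± 3.19 and 2001 CPM (4.09 ± 0.21). Olfml3 was at 529 ± 5.79, 47.8 ± 5.62 and 4703 CPM (3.47 ± 0.10). In these genes pvMΦ stood at a similar fraction of the microglial level. Slc2a5, the fructose transporter gene, was at 93.6 ± 21.6, 8.38 ± 3.22 and 1044 CPM (3.49 ± 0.26). Adgrg1, an adhesion receptor gene, was at 50.9 ± 13.5, 2.99 ± 2.25 and 576 CPM (4.13 ± 0.52). Spint1, a protease inhibitor gene, had 496 counts over the pvMΦ libraries and none in mMΦ. With mMΦ set at 3 counts over the group the ratio was 137. The exact lower limit of the ratio, for counting error only, was 111.

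Genes that microglia and border macrophages both express at high levels were also among the called members. Cx3cr1, the fractalkine receptor gene of which these mice keep 1 copy, was at 826, 832 and 866 CPM in pvMΦ and 395, 460 and 473 in mMΦ (0.93 ± 0.09, adjusted p = 2.77e-04). Trem2, a lipid-sensing receptor gene, was at 681 ± 77.6, 422 ± 43.6 and 2061 CPM (0.69 ± 0.12, adjusted p = 0.00809). Among all genes, other members of the microglial profile outside the list were the adenosine receptor gene Adora3 (7.96 ± 1.24 CPM in pvMΦ, 0.214 ± 0.276 in mMΦ and 108 in microglia) and the tetraspanin gene Cd9 (238 ± 13.3, 45.3 ± 9.57 and 1245 CPM).

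Across the 24 markers, the median level was 11, 8.89 and 10.1% of the microglial mean in the 3 pvMΦ libraries and 1.68, 1.52 and 2.35% in the 3 mMΦ libraries. A second set was taken by level alone, with 52 genes at 50 CPM or more in microglia and at least 20 times their mMΦ level. Its medians were 11.1, 9.87 and 11.6% in pvMΦ, and its mMΦ values are low by the way it was chosen. For the 21 markers that were called, the pvMΦ share of the microglial level ran from 6.10 to 37.6%. Of all 245 genes higher in pvMΦ, microglia stood above pvMΦ in 211 (86.1%, against 49.8% of all genes tested) and at 4 times the pvMΦ level or more in 68 (27.8%, against 5.97%). Whether microglia in the sort contributed to these values was not tested.

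**Figure D2:**
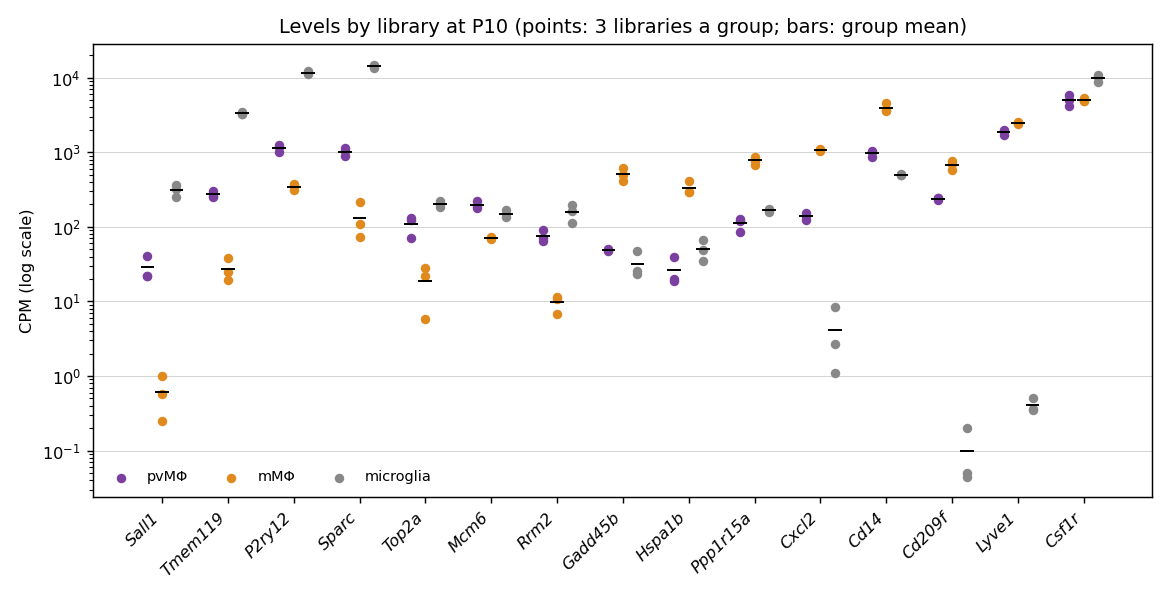
CPM on a log scale for 15 genes in each P10 library, with 3 points a group and a bar at the group mean. In Sall1, Tmem119, P2ry12 and Sparc pvMΦ lie between mMΦ and microglia, in Mcm6 they lie above both, and in Gadd45b, Hspa1b, Ppp1r15a, Cxcl2 and Cd14 mMΦ stand above both other groups.

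Cell cycle genes were the other large group higher in pvMΦ. Of 40 members tested, 26 were higher in pvMΦ and none in mMΦ, all 40 had a positive fold change, and the median was 1.85. Their summed level was 2535, 2542 and 2793 CPM in pvMΦ against 993, 867 and 782 in mMΦ and 3482 ± 338 in microglia. In the fit over all 45 libraries none of the 40 passed. The called members cover replication licensing (Mcm2, Mcm3, Mcm5, Mcm6 and Mcm7), nucleotide supply (Rrm2 and Tyms) and mitosis (Aurka, Aurkb, Ccnb1, Cdc20 and Plk1). The call of Plk1 was lost in 4 of 6 fits with 1 library left out.

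Rrm2, a subunit of ribonucleotide reductase, was at 71.2, 65.0 and 89.5 CPM in pvMΦ and 10.9, 6.75 and 11.4 in mMΦ (2.95 ± 0.28, adjusted p = 2.10e-04), with 157 in microglia. Top2a, the topoisomerase of dividing cells, was at 130, 70.4 and 125 CPM in pvMΦ and 22.2, 27.9 and 5.86 in mMΦ (2.54 ± 0.47, adjusted p = 0.0134), and lost the call without pvMΦ replicate 1 or without pvMΦ replicate 3 (adjusted p up to 0.0534). Mki67, which encodes the proliferation marker Ki-67, was at 60.1, 38.6 and 44.5 CPM in pvMΦ and 13.3, 7.05 and 12.7 in mMΦ (2.11 ± 0.27, adjusted p = 0.00141). In all 3 the groups did not overlap. Mcm6, part of the replicative helicase, was at 181, 191 and 220 CPM in pvMΦ, 74.1, 68.2 and 69.9 in mMΦ and 136, 150 and 166 in microglia (1.48 ± 0.13, adjusted p = 1.18e-04). Mcm6 was thus higher in every pvMΦ library than in any microglia library.

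Other genes of division among the largest differences were Pclaf (64.2 ± 9.49 CPM in pvMΦ and 11 ± 3.88 in mMΦ), the condensin gene Ncapd2 (29.4 ± 15.9 and 1.02 ± 1.25) and Cdc25c, a phosphatase gene of mitotic entry. Cdc25c had 896 counts in pvMΦ and 3 in mMΦ, a ratio of 248 with an exact 95% counting interval of 84.6 to 1205. Brca1, a DNA repair gene, had 525 and 2 counts, a ratio of 218 with an interval of 60.1 to 1805. The uncalled members with the highest levels were Cdk1 and Cenpf. Cdk1, the kinase of mitotic entry, was at 167 ± 11.4 CPM in pvMΦ and 100 ± 26.9 in mMΦ (0.73 ± 0.19, adjusted p = 0.0735), and Cenpf, a kinetochore gene, at 77.6 ± 14.9 and 75.8 ± 16.2 (0.03 ± 0.24, adjusted p = 0.987).

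The 2 groups of genes stood differently to microglia. The choice of lists in part sets this, since the microglia markers were listed as genes high in microglia and the cell cycle genes were not. The 26 cell cycle genes higher in pvMΦ were at a median of 77.6% of the microglial mean in pvMΦ (range 36.7 to 131%) and 18.5% in mMΦ. For the 21 microglia markers the medians were 9.17% and 2.41%. The lowest share of a called cell cycle gene in pvMΦ (36.7%) was close to the highest of a called microglia marker (37.6%).

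**Figure D3:**
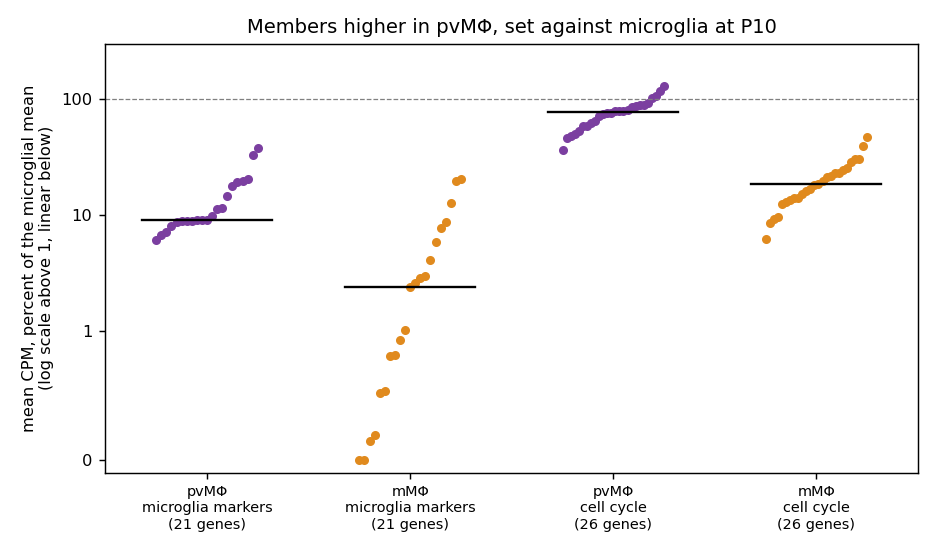
Mean CPM in pvMΦ and in mMΦ as a percent of the microglial mean (log scale above 1, linear below), 1 point a gene and a bar at the median, for the 21 microglia markers and the 26 cell cycle genes higher in pvMΦ. In pvMΦ the medians were 9.17% for microglia markers and 77.6% for cell cycle genes, and the dashed line marks the microglial level.

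Promoters of the called genes were searched for short motifs. RefSeq promoter sequences (GRCm38.p6, 250 bases before the start site) were matched for 23 of the 26 cell cycle genes, with 24 promoters. The CCAAT box, the letters CCAAT on either strand, was found in 21 of the 24 (87.5%), against 33.8% of all 32851 promoters of the same length and 29.4% of those of the called microglia markers (14 of 21 genes matched). The same letters were in 60% of 10 promoters of called heat shock genes and 34.5% of 29 of called immediate early genes. An E2F motif (TTTCCCGC or TTTGGCGC) was found in 3 of 24 (12.5%, against 1.3%). The CHR letters TTTGAA were in 25%, against 16%. CCAAT boxes bind the factor NF-Y and E2F motifs the E2F factors, both known from promoters of genes of replication and mitosis. A match describes these letters only and was not measured as binding. The promoters of Top2a and Mcm6 are shown because the former holds 6 CCAAT boxes and the latter 2, beside 2 E2F motifs, with the matches in capitals on the gene's own strand (ATTGG is CCAAT read on the other strand).
Top2a, chr11:99024190-99024439, minus strand: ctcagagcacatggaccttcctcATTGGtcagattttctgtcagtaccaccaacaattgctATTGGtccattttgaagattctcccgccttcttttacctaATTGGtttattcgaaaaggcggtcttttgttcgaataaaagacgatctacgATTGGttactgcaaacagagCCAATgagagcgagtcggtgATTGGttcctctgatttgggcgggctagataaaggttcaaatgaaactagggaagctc
Mcm6, chr1:128359706-128359955, minus strand: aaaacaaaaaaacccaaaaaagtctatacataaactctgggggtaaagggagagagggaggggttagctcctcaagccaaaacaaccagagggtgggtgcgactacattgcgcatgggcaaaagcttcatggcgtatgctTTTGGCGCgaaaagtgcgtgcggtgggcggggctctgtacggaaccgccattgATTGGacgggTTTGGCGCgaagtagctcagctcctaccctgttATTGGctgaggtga

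Of the 245 genes higher in pvMΦ than in mMΦ, 34 (13.9%) had a mean in microglia at or below that in pvMΦ. Among them were genes of replication and division such as Mcm2, Mcm6, Kif23 and Lig1, the last close to microglia (71.7 against 70.6 CPM). The genes described next were picked after their values were seen. S100a6, a calcium-binding protein gene, was at 44.5, 38.6 and 37.9 CPM in pvMΦ, 8.31, 6.35 and 6.74 in mMΦ and 1.94 on average in microglia (2.50 ± 0.46, adjusted p = 0.0126). Anxa2, a membrane-binding annexin gene, was at 120 ± 10.8, 57.9 ± 14.4 and 5.31 CPM (1.05 ± 0.21, adjusted p = 0.0209). Cnn2, a calponin gene, was at 62.3 ± 3.75, 22.3 ± 5.67 and 25 CPM (1.48 ± 0.24, adjusted p = 0.00530). The calls of S100a6 and Anxa2 were lost in 4 and 5 of the 6 fits with 1 library left out (adjusted p up to 0.0626 and 0.0996), and that of Cnn2 in none. Rnase2a, an eosinophil-associated ribonuclease gene, was at 67.5, 53.6 and 47.2 CPM in pvMΦ. It had no count in any mMΦ library and was at 1.79 CPM in microglia. With mMΦ set at 3 counts over the group the ratio was 1103. The exact lower limit of the ratio, for counting error only, was 896. Rnase2a belongs to a family of near-identical copies, so its count is uncertain. Retnla, a gene of alternative activation, was at 1512, 583 and 680 CPM in pvMΦ and 205, 194 and 531 in mMΦ, without overlap, and did not pass (1.58 ± 0.44, adjusted p = 0.102).

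Lysosomal genes split, with 6 of 37 higher in pvMΦ and 2 in mMΦ (median 0.12). Over all genes tested 1.85% were higher in pvMΦ and 1.89% in mMΦ. The protease gene Ctsd was at 3905 ± 378 CPM in pvMΦ and 2510 ± 117 in mMΦ (0.64 ± 0.08), and Ctsz and Cd68 differed by 0.64 ± 0.08 and 0.53 ± 0.09. Lyz2, the lysozyme gene of macrophages and monocytes, went the other way, at 3176, 3386 and 3385 CPM in pvMΦ and 6212, 5758 and 6721 in mMΦ (−0.91 ± 0.08, adjusted p = 1.85e-04). Of 10 tested genes of MHC class II presentation, 3 were higher in pvMΦ, namely H2-DMa, H2-Oa and Ctss, of which the first 2 encode parts of the molecules that edit peptide loading. The list's median was −0.17, with 5 members positive and 5 negative, and the call of Ctss was lost in 5 of 6 fits with 1 library left out. H2-Oa had 445 counts in pvMΦ and 2 in mMΦ and was at 33.1 CPM in microglia, above the 6.15 ± 0.405 of pvMΦ. The presenting molecules themselves did not pass, with H2-Aa at 49.6, 4.96 and 6.07 CPM in pvMΦ and 87.4, 64.6 and 32 in mMΦ (adjusted p = 0.506) and Cd74 at 304 ± 46.4 and 421 ± 131 (adjusted p = 0.381). Of 21 tested genes of cholesterol efflux and lipid transport, 3 were higher in pvMΦ and 3 in mMΦ. The median was −0.03, with 9 members positive and 12 negative. Lpl (lipoprotein lipase, 157 ± 16.2 and 57.5 ± 9.21 CPM) was higher in pvMΦ, as was Lrp1, a receptor of the LDL family (108 ± 23 and 19.7 ± 4.55). Both genes stood higher still in microglia, at 371 and 410 CPM.

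Immediate early genes were the largest group higher in mMΦ. Of 34 members tested, 27 were higher in mMΦ and none in pvMΦ, with a median log2 fold change of −1.97, beside 1.89% of all genes tested. The list holds genes that are switched on within minutes by growth factors, inflammation or stress, and many are also known to rise while tissue is taken apart. Summed, they were at 9739, 8101 and 9537 CPM in pvMΦ, 36499, 42945 and 38911 in mMΦ and 10945 ± 1818 in microglia. The mMΦ sums were thus several times those of pvMΦ and of microglia. In the fit over all 45 libraries 13 members passed.

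Junb, an AP-1 subunit gene, was at 641, 595 and 648 CPM in pvMΦ and 3403, 3736 and 3472 in mMΦ (−2.49 ± 0.15, adjusted p = 1.35e-05), with 960 in microglia. Fos, its partner, was at 1295, 977 and 1216 CPM in pvMΦ and 3489, 4654 and 3990 in mMΦ (−1.80 ± 0.21, adjusted p = 9.28e-04), with 795 in microglia. Gadd45b, a stress-induced gene, was at 50.1, 49.2 and 47.7 CPM in pvMΦ and 503, 620 and 415 in mMΦ (−3.39 ± 0.27, adjusted p = 8.03e-05), with 32.1 in microglia. In these 3 genes the lowest mMΦ library was above the highest of the other 6. Atf3, a stress-induced transcription factor gene, was at 323 ± 76.0 and 2019 ± 158 CPM (−2.64 ± 0.17). Ppp1r15a, the phosphatase subunit GADD34 of the integrated stress response, was at 128, 86.6 and 121 CPM in pvMΦ and 772, 877 and 681 in mMΦ (−2.80 ± 0.16, adjusted p = 1.20e-05). Nfkbia, the inhibitor that NF-κB itself induces, was at 380, 393 and 422 CPM and 2375, 2254 and 2270 CPM (−2.53 ± 0.11, adjusted p = 2.42e-06).

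Feedback inhibitors were among the members with the largest differences. Socs3, which curbs cytokine signalling, was at 15.5, 14.6 and 18.4 CPM in pvMΦ and 199, 175 and 81.0 in mMΦ (−3.23 ± 0.33, adjusted p = 3.52e-04). Zfp36, which destabilises cytokine mRNAs, was at 579 ± 75.6 and 3336 ± 778 CPM (−2.53 ± 0.21). The members with high levels that did not pass were Fosb (51.0 ± 21.9 and 192 ± 34.0 CPM, adjusted p = 0.0576) and Egr2 (92.0 ± 27.2 and 145 ± 48.6 CPM, adjusted p = 0.668).

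Promoters of 24 of the 27 genes were matched, with 29 sequences. The cAMP response element TGACGTCA was in 4 of 29 (13.8%, against 1.55% of all promoters), a κB motif of the NF-κB family in 6.90% (against 1.41%), the serum response CArG box in 6.90% (against 1.47%), and the AP-1 motif TGACTCA in 3.45% (against 4.46%), each searched on both strands. In promoters of the called cell cycle genes the cAMP response element was in 8.33%, and the κB motif and the CArG box in 4.17% each. The cAMP response element, the κB motif and the CArG box were in no promoter of the called heat shock genes or microglia markers. The AP-1 motif was in 10% of the heat shock promoters, 5.88% of the microglia marker promoters and 0% of the cell cycle promoters. The counts are small and describe letters in a window of 250 bases only. The promoters of Ppp1r15a, with its cAMP response element, and Nfkbia, with its κB motif read on the other strand, are shown with those letters in capitals.
Ppp1r15a, chr7:45526269-45526518, minus strand: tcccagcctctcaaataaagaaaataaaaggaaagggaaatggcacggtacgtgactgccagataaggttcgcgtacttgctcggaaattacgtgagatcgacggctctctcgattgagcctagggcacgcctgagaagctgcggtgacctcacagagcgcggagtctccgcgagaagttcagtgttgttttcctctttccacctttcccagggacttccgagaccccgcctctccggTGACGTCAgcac
Nfkbia, chr12:55492648-55492897, minus strand: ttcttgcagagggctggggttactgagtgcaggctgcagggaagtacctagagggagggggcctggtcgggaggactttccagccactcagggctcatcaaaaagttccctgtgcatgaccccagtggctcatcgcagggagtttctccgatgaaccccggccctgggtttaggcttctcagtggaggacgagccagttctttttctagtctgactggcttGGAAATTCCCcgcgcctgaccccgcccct

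Heat shock genes were also higher in mMΦ, in 8 of 15 cases, and none was higher in pvMΦ (median −0.84). In the fit over all 45 libraries 2 passed. Hspa1b, an inducible HSP70 gene, was at 39.7, 18.7 and 20.2 CPM in pvMΦ and 297, 408 and 296 in mMΦ (−3.67 ± 0.35, adjusted p = 2.43e-04), with 50.3 in microglia. Hspa1a was at 49.9, 21.3 and 31.9 CPM in pvMΦ and 310, 463 and 352 in mMΦ (−3.45 ± 0.33), and since the pair are near-identical copies, the split of reads between them is uncertain. The smallest difference among the called members was that of Hspa5, the endoplasmic reticulum chaperone gene BiP, at 2090 ± 124 and 3318 ± 207 CPM (−0.67 ± 0.08). The heat shock element was found in none of 10 promoters of the 6 called heat shock genes that were matched, and in 0.466% of all promoters, which says only that its letters are not in this window. A metal and stress response gene outside the list, Mt2 (metallothionein 2), was at 5.72, 5.81 and 5.66 CPM in pvMΦ and 75, 97.3 and 31.7 in mMΦ (−3.57 ± 0.40, adjusted p = 6.40e-04).

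Of 16 chemokine genes tested, 9 were higher in mMΦ and none in pvMΦ (median −1.49), and 1 passed in the fit over all 45 libraries. Cxcl2, a neutrophil attractant, was at 153, 125 and 141 CPM in pvMΦ, 1069, 1031 and 1116 in mMΦ and 4.09 on average in microglia (−2.94 ± 0.47, adjusted p = 0.00552). Ccl2, a monocyte attractant, was at 464, 454 and 435 CPM in pvMΦ and 1609, 2278 and 2214 in mMΦ (−2.17 ± 0.15, adjusted p = 2.84e-05). The mMΦ libraries were above all pvMΦ and microglia libraries in both. Cxcl1, Ccl3 and Ccl4 differed in the same direction, with fold changes of −3.09 ± 0.37, −2.46 ± 0.21 and −1.85 ± 0.17. Of 29 cytokines and growth factors, 5 were higher in mMΦ and none in pvMΦ. They were Tnf (42.4 ± 11.4 CPM in pvMΦ and 230 ± 50.3 in mMΦ), Osm, Gdf15, the EGF-receptor ligand gene Hbegf and Bmp2, the last at 126, 108 and 75.6 CPM in pvMΦ, 306, 364 and 262 in mMΦ and 0.0297 on average in microglia.

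Of 20 receptors that sense microbial products, 3 were higher in mMΦ and 17 did not pass (median −0.22, with 6 members positive), beside 1.89% of all genes tested. Cd14, the co-receptor of lipopolysaccharide sensing, was at 1051, 870 and 1021 CPM in pvMΦ and 4551, 3598 and 3720 in mMΦ (−2.01 ± 0.11, adjusted p = 7.31e-06). Tlr2, a receptor of bacterial lipoproteins, was at 250 ± 13.2 and 600 ± 66.4 CPM (−1.26 ± 0.16). The third was the inflammasome gene Nlrp3, whose call was lost in 3 of 6 fits with 1 library left out. The receptor genes Fcgr2b, which encodes the inhibitory Fc receptor, and C5ar1, which encodes a complement receptor, were higher in mMΦ by smaller amounts (−0.81 ± 0.10 and −0.69 ± 0.09).

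TGF-β and BMP signalling had 3 of 24 members higher in mMΦ and 1 in pvMΦ (median −0.12). Over all genes tested the shares were 1.89% and 1.85%. Bmp2, the ligand above, was joined by Id2, an inhibitor of DNA binding that BMP signals induce (85.5 ± 11.2 CPM in pvMΦ and 523 ± 91.7 in mMΦ), and by Tgif1, a SMAD co-repressor gene (71.2 ± 12.7 and 331 ± 24.9). Tgfbr1, the type I receptor gene of TGF-β, was at 137, 73.1 and 135 CPM in pvMΦ and 47.9, 48.9 and 43.5 in mMΦ (1.3 ± 0.22, adjusted p = 0.00747), with 630 in microglia. Of 32 interferon response genes, 3 were higher in mMΦ and none in pvMΦ (median −0.22), led by Irf1 (63.7 ± 17.4 and 337 ± 56.7 CPM). Lists with no member called in this comparison included MHC class I (15 tested), and cholesterol synthesis had 1 of 23, Insig1, a brake on sterol synthesis, higher in mMΦ. Of the 251 genes higher in mMΦ, 27 were on the immediate early list and 8 on the heat shock list.

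**Figure D4:**
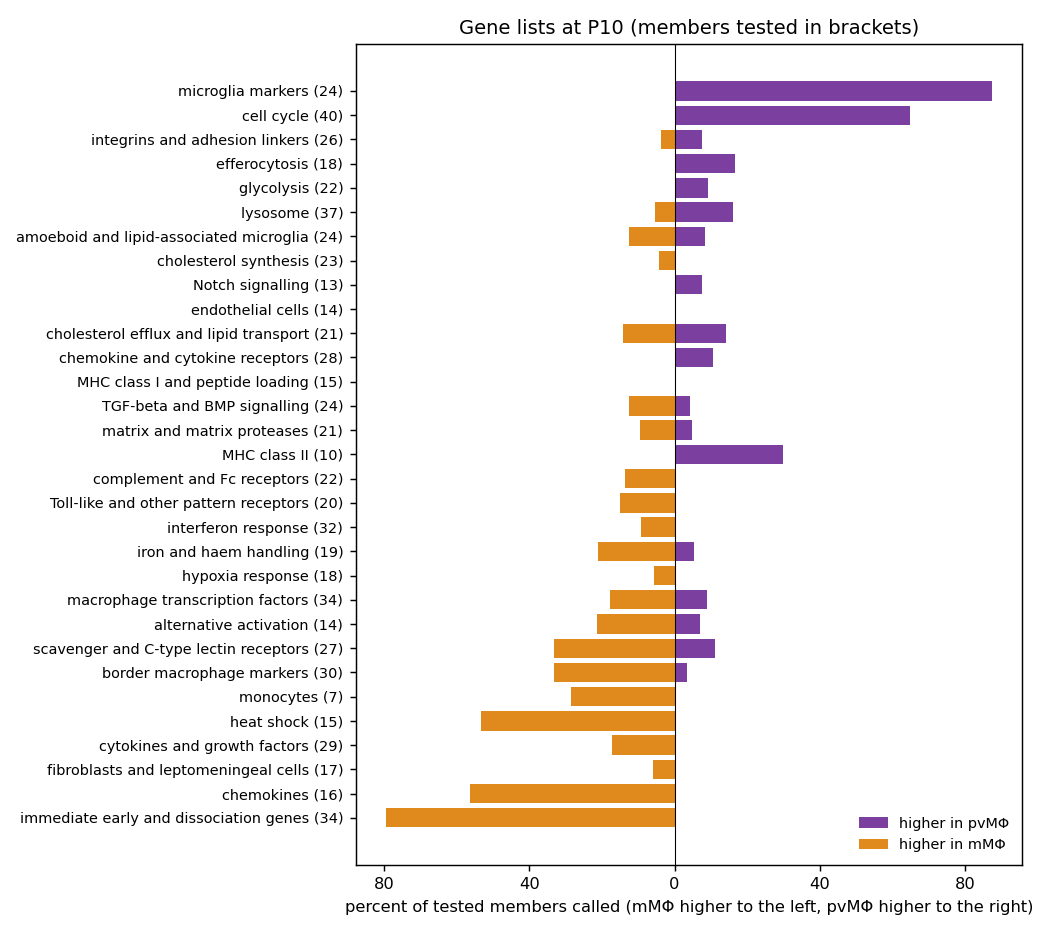
Percent of the tested members of each gene list that were called, with those higher in pvMΦ to the right and those higher in mMΦ to the left, and the number tested in brackets. Lists are ordered by median fold change. Microglia markers (21 of 24) and cell cycle genes (26 of 40) reach furthest to the right, and immediate early genes (27 of 34), chemokines (9 of 16) and heat shock genes (8 of 15) furthest to the left.

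Markers of the other cells that the sorts could hold were compared next. Of 17 fibroblast and leptomeningeal markers tested, 1 passed. Ptgds, the prostaglandin D synthase gene of leptomeningeal cells, was at 22.4, 11.7 and 12.8 CPM in pvMΦ and 194, 106 and 89.7 in mMΦ (−3.05 ± 0.36, adjusted p = 9.28e-04). The list's summed level was 113, 83.1 and 119 CPM in pvMΦ, 478, 301 and 168 in mMΦ and 25 in microglia, with a median of −1.17 and no member at 0 counts in either group. Wnt4, a ligand gene, had 1 count in pvMΦ and 319 in mMΦ (ratio 384, exact 95% counting interval 68.4 to 15216) and none in microglia, and its call was lost in all 6 fits with 1 library left out. Pericyte and smooth muscle markers summed to 21.8 to 36.1 CPM in pvMΦ and 41.2 to 163 in mMΦ, and none was called. Whether carried-over RNA of meningeal tissue contributed to genes higher in mMΦ was not tested.

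Endothelial markers summed to 768 to 861 CPM in pvMΦ and 789 to 833 in mMΦ, with none of 14 called. Astrocyte, oligodendrocyte, neuron and ependymal markers summed to at most 178 CPM a list in any of the 6 libraries, with none called. Of 7 tested monocyte markers, Lyz2 and Nr4a1 were higher in mMΦ, and the call of Nr4a1 was lost in 5 of the 6 fits with 1 library left out. Ccr2, the receptor of inflammatory monocytes, did not pass (5.89 ± 1.23 and 9.05 ± 5.45 CPM, adjusted p = 0.794). Of the markers tested, none of 9 for dendritic cells, 2 for neutrophils and 1 for T and NK cells was called, and 1 of 4 for B cells was, Blnk, an adaptor gene that stood at 75.4 ± 5.87 CPM in pvMΦ, 37.9 ± 5.01 in mMΦ and 213 in microglia. Erythroid markers stood out in single libraries, with a sum of 188 CPM in pvMΦ replicate 2 and 99.4 in mMΦ replicate 1 against at most 6.10 in the other 4.

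The same contrast was fitted at P21 and P56 in other mice (4 pvMΦ and 3 mMΦ libraries at each age, with sequencing batch as a term). At P21 no gene of 13229 passed edgeR's test (0%), with 1080 at an unadjusted p under 0.05 and 341 called by DESeq2. At P56, 11 of 12867 passed (0.0855%), all higher in pvMΦ, and 9 of them were also higher in pvMΦ at P10, namely Adgrg1, Sparc, Tmem119, P2ry12, Siglech, Olfml3, Cd9, Lpcat2 and Hspb3. This count of 11 fell to 1 in batch S232 alone, to 1 with the replicate block, to 1, 2 or 3 without mMΦ replicate 3, 1 or 2, and to 6 without pvMΦ replicate 2, and it was 18 without pvMΦ replicate 3. The scatter between libraries was larger at these ages, with a common dispersion of 1.11 at P21 and 1.45 at P56 against 0.359 at P10. Of the genes higher in pvMΦ at P10, 186 of 238 tested (78.2%) had the same sign at P21 and 158 of 224 (70.5%) at P56. Of those higher in mMΦ these shares were 88% and 69.9%. Over all genes tested 50.2% were positive at P21 and 50.3% at P56. The median log2 fold change of the genes higher in pvMΦ at P10 was 0.64 at P21 and 0.59 at P56, against 1.59 and 1.51 at P10 for the same genes. For those higher in mMΦ it was −0.73 and −0.25, against −1.54 and −1.53. These genes were chosen by their P10 values, which by itself makes the P10 medians larger in size. The smaller medians at later ages are thus no measure of a change with age.

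The summed levels of the 3 leading lists were followed with age. Here CPM were scaled over the 20 libraries of the 2 populations, so P10 values differ slightly from those above. The sums were not adjusted for batch, and pvMΦ replicate 4 at P21 and at P56 was of batch S276. Microglia markers summed to 9735 ± 470 CPM in pvMΦ at P10 (n = 3), 17168 ± 7402 at P21 and 15612 ± 4935 at P56 (n = 4 each), and to 2815 ± 51.0, 5115 ± 453 and 4881 ± 647 in mMΦ (n = 3 each). The groups did not overlap at any of the 3 ages. Summed cell cycle genes at P10 were at 2424 ± 140 CPM in pvMΦ and 780 ± 101 in mMΦ. By P21 the sums were 727 ± 166 in pvMΦ against 648 ± 43.1 in mMΦ, by P56 they were 416 ± 71.5 against 391 ± 94.5, and the groups overlapped at both later ages. Summed immediate early genes in pvMΦ were at 8431 ± 784, 20140 ± 3032 and 41203 ± 8582 CPM in order of age. In mMΦ the same sums were 34899 ± 2919, 47279 ± 7920 and 59262 ± 10910, above every pvMΦ library of the same age.

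Tests of the change in the pvMΦ minus mMΦ difference itself called 2 of 14587 genes (0.0137%) from P10 to P21 and 20 (0.137%) from P10 to P56, all in the positive direction. Of the 34 immediate early genes, 10 were among the latter. The count of 20 was 6 without pvMΦ replicate 2 of P10, 8 without pvMΦ replicate 3 of P10, 11 with the replicate block and 41 without pvMΦ replicate 4 of P56, and single left-out mMΦ libraries gave 9 to 19. The change comes from 1 fit of the 20 libraries of both populations, and so is not the difference of the values fitted at each age. For Gadd45b it was 3.01 ± 0.55 (adjusted p = 0.0359), beside −3.39 ± 0.27 at P10 and −0.59 ± 1.33 at P56 in the fits of each age. For Mt2 it was 3.07 ± 0.56 (adjusted p = 0.0359), beside −3.57 ± 0.40 and −0.34 ± 0.70. None of the 40 cell cycle genes and none of the 24 microglia markers passed this test. The median change of the cell cycle genes was −1.68 to P21 and −1.62 to P56, and that of the microglia markers −0.56 and −0.44. On simulated data the test of the change to P56 missed most changes, so a gene that did not pass is not shown to be unchanged. The P10 libraries that chose Gadd45b and Mt2 also enter the change, so its size is not independent of that choice.

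**Figure D5:**
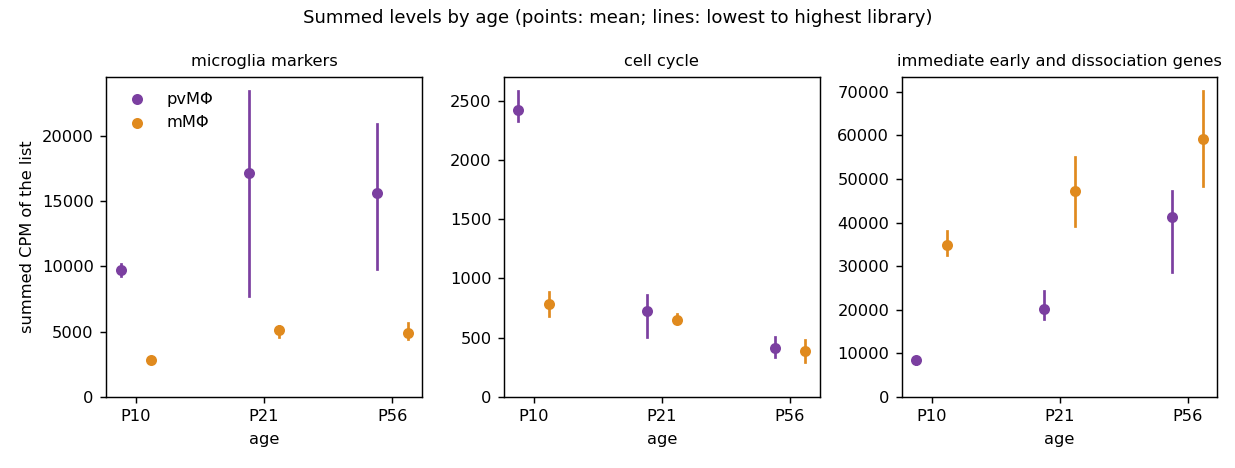
Summed CPM of 3 gene lists in pvMΦ and mMΦ at P10, P21 and P56, with points at the mean and lines from the lowest to the highest library. Microglia markers stand higher in pvMΦ at each age, cell cycle genes stand higher in pvMΦ at P10 and overlap later, and immediate early genes stand higher in mMΦ with a smaller ratio at P56.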

How the data were processed

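RNA of cells sorted into a stabilising reagent was turned into cDNA with an ultra-low-input kit that covers whole transcripts and keeps no strand, per the labels' protocols. The authors deposited 1 table of integer counts per gene, made with bcl2fastq 2.18, STAR 2.7.8a and featureCounts 2.0.2 per the submitters' processing notes. The build, annotation and strand setting were not given in the sources used here. Genes that overlap cannot be told apart by strand. Of 53546 genes, 27058 had a count at P10 and 13279 passed filterByExpr (minimum count 10, minimum total 15).

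The test was edgeR 4.0.16 (glmQLFit robust, TMM, R 4.3.3) on the 9 P10 libraries, with 1 coefficient per population. Only P10 libraries entered, because the scatter between replicates grows with age. Replicates differed by far more than counting error (chi-square per degree of freedom 41.0 to 77.3), so the scatter between libraries sets the precision. The adjusted p are Benjamini-Hochberg values over all genes tested. Ratios with at most 3 counts on a side carry exact 95% intervals or lower limits, which cover counting error only, as do ratios set at 3 counts. Genes named are, in each direction, the 15 with the largest change and the 8 most abundant among called genes at 5 CPM or more, up to 4 called and 2 uncalled members of each list, and genes known from these cells. S100a6, Anxa2, Cnn2, Retnla, Olfml3, Mcm2, Mcm6, Mki67, Ppp1r15a, Nfkbia, Atf3, Ier3 and further list members were named after their values were seen. The comparison, the gene lists and the rule were chosen with earlier results of these data known. Limma 3.58.1 and DESeq2 1.42.0 were alternatives. The fit was run on simulated data, where it missed many changes, the more so at P21, at P56 and for the change to P56. Counts of calls, the 0 at P21 among them, thus say little of genes that did not pass.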

Additional observations from a re-analysis of the deposited data

Results flagged for a closer look

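Values of the genes with the largest P10 differences were checked for single libraries far from the others in the 2 pvMΦ groups of 4 libraries, P21 and P56, in 60 sets of 4 values, by Dixon's ratio of gap to range at its 95% critical value. By that choice chance sets apart about 1 in 20 sets of independent, normally spread values. The 13 found here are not such sets, since most hold zeros and they share libraries. Of the 13, 8 fell in pvMΦ replicate 4 at P56, the only library of its group from batch S276, so that batch and library cannot be told apart. In it, Tspan32 was at 10.7 CPM, Cdc25c at 0.0411, Wnt4 at 0.0411 and Gdf15 at 3.62, where the other 3 libraries had none. In the same library Apbb2 was at 6.41 CPM (others at most 0.0538), Ncapd2 at 6.66 (at most 0.108), Mcm10 at 7.24 (at most 0.108) and Hspa1a at 431 (39.9 to 103). In pvMΦ replicate 3 at P21, Rnase2a was at 21 CPM, H1f5 at 0.0441 and Wnt4 at 0.309, where the other 3 had none, and Mcm10 was at 1.54 (others at most 0.0530). Hbegf was at 7.37 CPM in pvMΦ replicate 2 at P56 and 55.5 to 63.1 in the other 3. Several of these values are below 1 CPM and rest on few counts.

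The pvMΦ minus mMΦ difference of Mt2 and of Gadd45b differed between P10 and P56 by an interaction test. The change was 3.07 (adjusted p = 0.0359 in edgeR's quasi-likelihood test) for Mt2 and 3.01 (adjusted p = 0.0359) for Gadd45b on the log2 scale.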

How the results depend on the processing

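Limits come first from 3 libraries a group and the scatter between them. The 496 genes kept their sign in each alternative that tested them, and the counts moved. Genes called were 998 with DESeq2 (532 higher in pvMΦ, 466 in mMΦ), 743 with limma voom (436 higher in mMΦ) and 93 in the fit of all 45 libraries (37 and 56), whose common spread is that of all ages. A fit of only the 6 pvMΦ and mMΦ libraries, without microglia, called 538, of which 432 were among the 496. Left-out single libraries gave 333 to 441 calls, 159 to 239 higher in pvMΦ (159 without pvMΦ replicate 3) and 173 to 202 in mMΦ. With the replicate block there were 392, 382 of them shared with the fit without it. Same-numbered libraries did not deviate together (correlations −0.04, −0.02 and −0.04), so the numbers are not taken as pairs. Of the 126 genes named and called, 86 kept the call in each fit with 1 library left out.

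The fit of all 45 libraries called 0 cell cycle genes, 13 immediate early genes, 2 heat shock genes, 1 chemokine and 0 border macrophage markers higher in mMΦ, and this last count was 16 with DESeq2, 22 with limma voom and 3 to 7 with 1 library left out. Medians with limma voom were 2.05 for cell cycle and −1.02 for heat shock genes. With 1 library left out they were 2.12 to 2.53 for microglia markers, 1.80 to 2.07 for cell cycle, −2.12 to −1.83 for immediate early genes and −0.56 to −0.46 for border markers. The cause of these shifts was not tested.

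At P21, DESeq2 called 341 genes, the fit without low-count filter 23 and left-out libraries 0 to 46 (46 without pvMΦ replicate 3). At P56 these were 447, 17 and 1 to 18, with 1 in batch S232 alone and 1 with the replicate block. Of the change from P10 to P21, 4 genes were called without filter, 5 in batch S232 alone, 1 with the block and 1 to 5 with a library left out. To P56 there were 44 with limma voom, 41 in batch S232 alone, 11 with the block and 6 to 41 with a library left out (41 without pvMΦ replicate 4 of P56). Fold changes near 0 turned sign: Csf1r was at 0.0045 with limma voom and, with a library left out, at −0.14 to 0.096, Maf at −0.14 to 0.035, Bhlhe41 at −0.16 to 0.017 and Cenpf at −0.061 to 0.24.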
